A study of Mus musculus with 22 samples.

Results

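The ligands Csf1 and Il34, their receptor Csf1r, and 6 transcription factors of the myeloid lineage, Spi1, Irf8, Irf5, Cebpa, Cebpb and Runx1, were followed in serially passaged mouse embryonic fibroblasts (MEFs). These 9 genes were taken by name, with earlier results of these data known, from the 55401 gene identifiers of an RNA-seq count table. All 9 passed the filter on low counts in each fit, with 2 to 3900 reads per gene and library. MEFs are primary cells grown from whole mid-gestation embryos, here without the head and viscera, and they were expanded at atmospheric oxygen. The 22 libraries form 2 sets. The S6K1 set holds 4 early WT libraries at passage 3, 4 late WT libraries at passage 8 and 3 late S6K1 KO libraries at passage 8. The S6K1/S6K2 set holds 4 early WT libraries at passage 3, 4 late WT libraries at passage 8 and 3 late DKO libraries, also at passage 8, in which both S6K1 and S6K2 were deleted. Both deletions were germline, so every cell type in the dish carried them. The paper reports that KO and DKO MEFs stopped growing earlier than WT MEFs on serial passage. An equal passage number is therefore not an equal number of doublings. WT and KO embryos of the S6K1 set came from the same heterozygous mothers, whereas DKO embryos and their WT controls came from different matings, so that in the DKO comparison genotype and breeding stage cannot be told apart. The labels do not say which libraries share an embryo or a mother, and P values therefore measure the spread between these libraries.

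The libraries held 10742454 to 17314832 counted reads, and values are given as CPM, the reads of a gene relative to all reads of its library, scaled for library composition. At these depths 3 reads correspond to 0.173 to 0.279 CPM. Rps6kb1, which encodes S6K1, was at 20.01 ± 5.07 CPM (SD, n = 3) in KO and 63.5 ± 9.16 CPM (n = 4) in late WT, and at 23.9 ± 4.03 CPM in DKO and 73.8 ± 10.6 CPM in its late WT. Rps6kb2, which encodes S6K2, was at 0.812 ± 0.478 CPM in DKO and 13.2 ± 2.48 CPM in late WT. All 10 fibroblast markers were detected in every group, and their summed level was 15235 to 34947 CPM. Macrophage markers were present in every group too, with summed levels from 528 to 12948 CPM over 22 markers, while those of lymphocytes and neutrophils summed to at most 0.442 CPM. In bulk RNA, fewer cells of a type and less RNA per cell cannot be told apart.

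CSF1 (M-CSF) and IL-34 are cytokines that bind the same receptor tyrosine kinase, CSF1R, on the surface of macrophages and their precursors, where the signal sustains survival, proliferation and differentiation. Fibroblasts and other stromal cells are known to secrete CSF1, whereas CSF1R is largely restricted to the mononuclear phagocyte lineage. PU.1 (encoded by Spi1), C/EBPα, IRF8 and RUNX1 are transcription factors that specify myeloid cells from blood progenitors and act on the Csf1r gene, IRF5 controls inflammatory gene expression in macrophages, and C/EBPβ acts both in macrophages and in many non-blood cells, fibroblasts among them.

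The sequences just upstream of the starts of 4 members are shown here, because these genes differ in how they moved: Csf1 and Cebpb, which did not pass the test in the passage comparison of either set, and Cebpa and Irf8, which rose with passage in both and fell in DKO. Each window holds the 250 bases before the RefSeq start on GRCm38.p6, written 5′ to 3′ on the strand of the gene. Capitals mark matches, on either strand, to GGGCGG (the GC box), CCAAT (the CCAAT box) and TATAAA (the TATA box).
Csf1 (chr3:107760470-107760719, minus strand): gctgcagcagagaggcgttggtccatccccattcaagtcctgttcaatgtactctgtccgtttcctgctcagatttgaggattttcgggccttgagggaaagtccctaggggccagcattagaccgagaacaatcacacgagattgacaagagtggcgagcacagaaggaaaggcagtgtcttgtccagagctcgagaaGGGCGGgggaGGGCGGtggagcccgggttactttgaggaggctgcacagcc
Cebpb (chr2:167688665-167688914, plus strand): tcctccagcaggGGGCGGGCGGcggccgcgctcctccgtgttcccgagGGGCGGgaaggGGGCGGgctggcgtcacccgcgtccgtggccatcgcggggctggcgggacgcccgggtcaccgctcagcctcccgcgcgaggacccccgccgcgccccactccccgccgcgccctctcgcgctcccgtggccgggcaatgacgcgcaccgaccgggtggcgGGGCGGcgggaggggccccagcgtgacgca
Cebpa (chr7:35119043-35119292, plus strand): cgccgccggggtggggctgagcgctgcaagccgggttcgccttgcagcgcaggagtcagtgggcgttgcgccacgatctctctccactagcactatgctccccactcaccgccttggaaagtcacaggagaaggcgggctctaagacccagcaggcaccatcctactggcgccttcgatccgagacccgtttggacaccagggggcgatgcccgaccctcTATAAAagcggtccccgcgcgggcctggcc
Irf8 (chr8:120736108-120736357, plus strand): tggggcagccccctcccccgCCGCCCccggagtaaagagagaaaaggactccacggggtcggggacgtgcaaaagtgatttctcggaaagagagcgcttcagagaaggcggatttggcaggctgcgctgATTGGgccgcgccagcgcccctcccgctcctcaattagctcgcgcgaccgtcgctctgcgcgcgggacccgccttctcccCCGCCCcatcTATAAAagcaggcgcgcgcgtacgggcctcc

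Cebpa and Irf8 had a TATA box that began at positions −30 and −31 from the start, respectively. Csf1 had none, and held GC boxes at −51 and −41. Cebpb had none either, and held 5 GC boxes, of which the pair at −238 and −234 overlap each other. GC boxes were also in the Irf8 window shown, at −230 and −41, and the second Irf8 window held no match. Irf5, not shown, also rose with passage in both sets and fell in DKO. Its window had no TATA box and 1 GC box, at −48, so the 4 windows shown do not stand for all members. G and C made up 81.6% of the Cebpb window, 67.2% of that of Irf8, 66.4% of that of Cebpa and 56.4% of that of Csf1. Windows of 6 of the 9 members were searched, 8 windows in all with a second start for Irf8 and for Runx1. The receptor gene Csf1r was left out of this search, and Spi1 and Il34 had no RefSeq window on hand. The counts below therefore say nothing on these genes. The TATA box was in 2 of the 8 windows, the CCAAT box in 3 and the GC box in 4, beside 12.4%, 33.8% and 32.7% of all 32851 promoter windows of the same length. These 3 motifs were added after the sequences had been seen. Of 5 motifs of transcription factors, the PU.1-type GAGGAA was in 1 window, the second one of Runx1, beside 23.3% of all windows. TTGCNNAA (C/EBP), TGTGGT (RUNX), TGANTCA (AP-1) and GAAANNGAA (IRF) were in none, beside 9.56%, 14.0%, 6.75% and 7.13% of all windows. A match is a description of the letters and not a binding site.

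With passage, the receptor and 4 of the lineage factors rose in both sets of WT MEFs. Csf1r, Spi1, Irf5, Irf8 and Cebpa were 3.98 to 9.45 times higher at passage 8 than at passage 3 in the S6K1 set and 4.14 to 7.68 times higher in the S6K1/S6K2 set. The ligands Csf1 and Il34 and the factor Cebpb did not pass the test in either set, and Runx1 fell in the S6K1 set alone. In DKO MEFs the same 5 genes were at 0.206 to 0.331 times their late WT level. In S6K1 KO MEFs the 5 genes had means at 0.516 to 0.645 times late WT, and none passed the test.

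The 9 members were chosen with earlier results of these data known, so the shares of all genes beside them are a description and not a test. In the S6K1 set 5 of the 9 members rose and 1 fell with passage. There 6.96% of 14132 genes rose and 5.97% fell at an adjusted P under 0.05 (edgeR). In the S6K1/S6K2 set 5 of 9 rose and 0 fell, beside 8.28% and 4.89% of 14365 genes. The DKO comparison called 0 members higher and 5 lower, beside 0.821% and 3.95% of genes. The KO comparison called 0 of 9 by edgeR, beside 0.00708% of genes higher and 0.0354% lower, 6 of the 9 had an unadjusted P under 0.05, beside 10.6% of genes, and DESeq2 called 2, Cebpa and Cebpb, beside 1.88% of genes. The counts over all genes moved with single libraries. With passage in the S6K1 set the 844 genes lower became 549, 479 and 428 without early WT replicate 2, late WT replicate 2 and late WT replicate 3. In the S6K1/S6K2 set the 1190 higher and 702 lower became 609 and 276 without early WT replicate 1, 639 and 272 without early WT replicate 2, 737 and 366 without late WT replicate 2 and 772 and 374 without late WT replicate 3. In DKO the 118 higher and 568 lower became 14 and 83 without DKO replicate 2, 22 and 135 without DKO replicate 3 and 44 and 284 without late WT replicate 2, and the higher ones became 275, 65 and 55 without late WT replicates 1, 3 and 4. The members called stayed at 6 to 7 and 5 to 5 with passage under these omissions, and at 1 to 6 in DKO. The median log2 fold change over the 9 members was 1.99 and 2.08 with passage in the 2 sets, −0.63 in KO and −1.61 in DKO, while the medians over all genes tested were −0.038, 0.013, −0.010 and −0.0055. Passage and genotype comparisons within a set share the late WT libraries, so their values are set side by side here and not correlated.

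**Figure D1:**
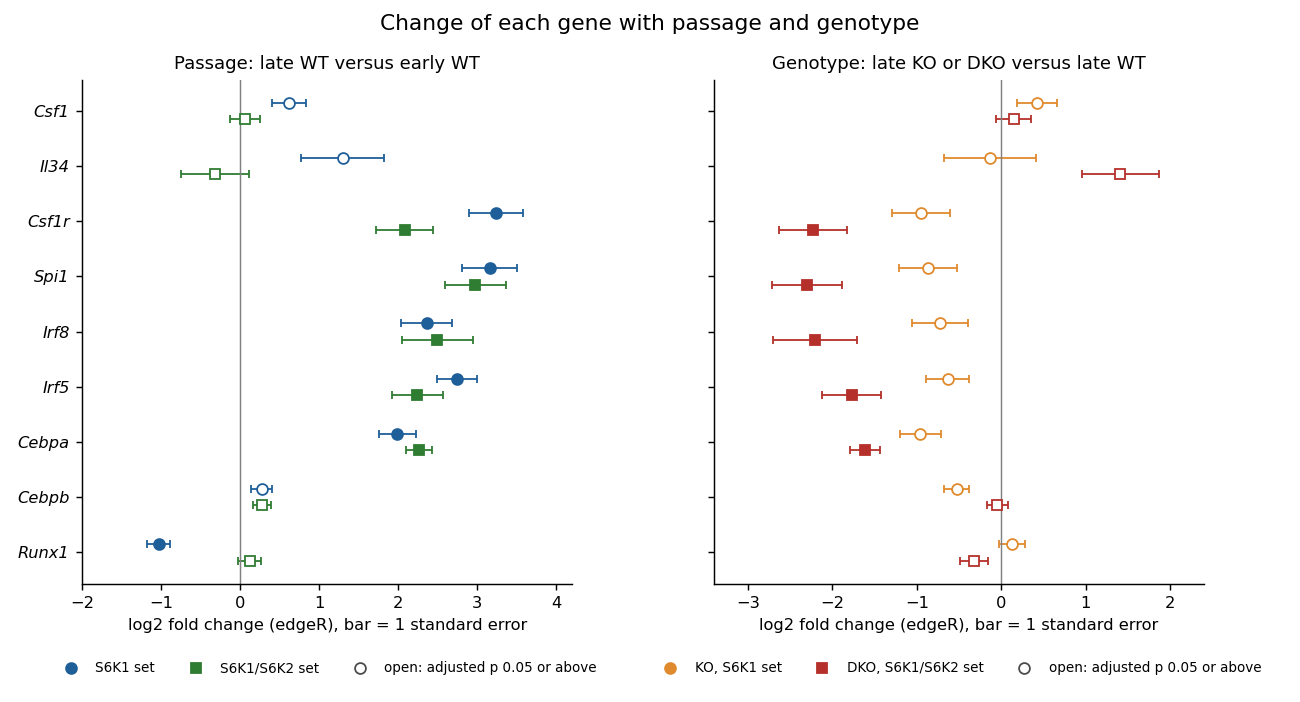
Log2 fold change of the 9 members (vertical axis) with passage (left panel) and with genotype (right panel) in the 2 sets, from the edgeR fits, with bars of 1 standard error and filled points where the adjusted P was under 0.05. Csf1r, Spi1, Irf5, Irf8 and Cebpa sit to the right of 0 with passage in both sets, from 1.99 to 3.23, and to the left of 0 in DKO, from −2.30 to −1.61, whereas Csf1 and Cebpb lie between −0.53 and 0.62 throughout.

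Csf1 (chromosome 3, 107741048 to 107760469) was expressed at passage 3 already. In the S6K1 set it was at 98.1, 69.5, 143 and 75.9 CPM in early WT, at 157, 118, 181 and 138 CPM in late WT and at 198, 218 and 184 CPM in KO. The late WT libraries overlapped those of early WT, and the 3 KO libraries lay above all 4 of late WT. The log2 fold change was 0.62 (SE 0.22) with passage (adjusted P = 0.0888, edgeR) and 0.42 (SE 0.24) in KO (adjusted P = 0.572, edgeR). With DESeq2 the passage difference passed the threshold, at 0.64 and an adjusted P of 0.0376, and it also did so without early WT replicate 3, which holds 143 CPM (adjusted P = 0.00965, edgeR). The 4 late WT libraries of this set include 1 with reads from Y-linked genes and the 3 KO libraries 3, and with embryo sex in the fit the KO difference was −0.018 and the passage difference 0.83 (adjusted P = 0.0033, edgeR).

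No difference in the ligand passed the test in the S6K1/S6K2 set. Csf1 was at 107, 110.2, 134 and 150.1 CPM in early WT, at 171, 131, 121 and 87.0 CPM in late WT and at 121, 149 and 157 CPM in DKO. The 3 groups overlapped. The log2 fold changes were 0.055 (SE 0.19) with passage (adjusted P = 0.872, edgeR) and 0.14 (SE 0.20) in DKO (adjusted P = 0.769, edgeR).

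Il34 (chromosome 8, 110741829 to 110805949) was the lowest member by reads. It was at 1.29, 1.05, 1.16 and 0.176 CPM in early WT of the S6K1 set, at 2.90, 0.7998, 1.98 and 3.65 CPM in late WT and at 1.90, 2.28 and 2.20 CPM in KO. Late WT overlapped both other groups, and its lowest library lay below 3 of the 4 early ones. In the other set it was at 1.44, 1.53, 1.49 and 2.19 CPM in early WT, at 2.30, 0.692, 1.70 and 0.512 CPM in late WT and at 2.702, 4.26 and 3.53 CPM in DKO. The 3 DKO libraries lay above all 8 WT libraries of their set, and the mean was 2.69 times that of late WT. The DKO difference of 1.41 on the log2 scale (SE 0.46) had an unadjusted P of 0.00919 and an adjusted P of 0.113 in edgeR, and an adjusted P of 0.0379 in DESeq2. With passage the differences were 1.30 (SE 0.53, adjusted P = 0.131) in the S6K1 set and −0.32 (SE 0.43, adjusted P = 0.649) in the S6K1/S6K2 set, both by edgeR. Il34 overlaps 2 gene models of the opposite strand, and whether the counting used strand is not given in the sources used here.

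Csf1r, the receptor for both ligands, moved furthest with passage in the S6K1 set. It was at 17.1, 16.8, 23.6 and 12.9 CPM in early WT, at 243, 83.2, 220.3 and 119 CPM in late WT and at 69.6, 110.3 and 78.6 CPM in KO. Every late WT library lay above every early one, late WT libraries 1 and 3 stood well above 2 and 4, and 1 of the 3 KO libraries reached into the late WT range. The passage difference was 3.23 on the log2 scale (SE 0.34, adjusted P = 9.85e-05, edgeR) and the KO difference −0.95 (SE 0.35, adjusted P = 0.362, edgeR). The summed macrophage markers split the late WT libraries in the same way, with 11491 and 9539 CPM in libraries 1 and 3 and 5509 and 6393 CPM in 2 and 4, and were at 3626 to 4963 CPM in KO.

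In the S6K1/S6K2 set Csf1r was at 24.5, 12.2, 38.6 and 41.8 CPM in early WT, at 113, 153, 115 and 104 CPM in late WT and at 39.6, 20.2 and 18.6 CPM in DKO. Late WT stood above both other groups without overlap, and the DKO libraries fell inside the early WT range. The log2 difference was 2.08 (SE 0.36) with passage (adjusted P = 0.00442, edgeR) and −2.23 (SE 0.40) in DKO (adjusted P = 0.0129, edgeR). Macrophage markers summed to 7528 to 12948 CPM in late WT and to 3493, 1068 and 930.5 CPM in the 3 DKO libraries, so that DKO replicate 1 was the highest of its group in both. Without DKO replicate 2 or 3 the adjusted P of Csf1r was 0.0784 or 0.0738, and 83 or 135 genes were called lower in place of 568. Csf1r overlaps Hmgxb3 on the opposite strand.

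**Figure D2:**
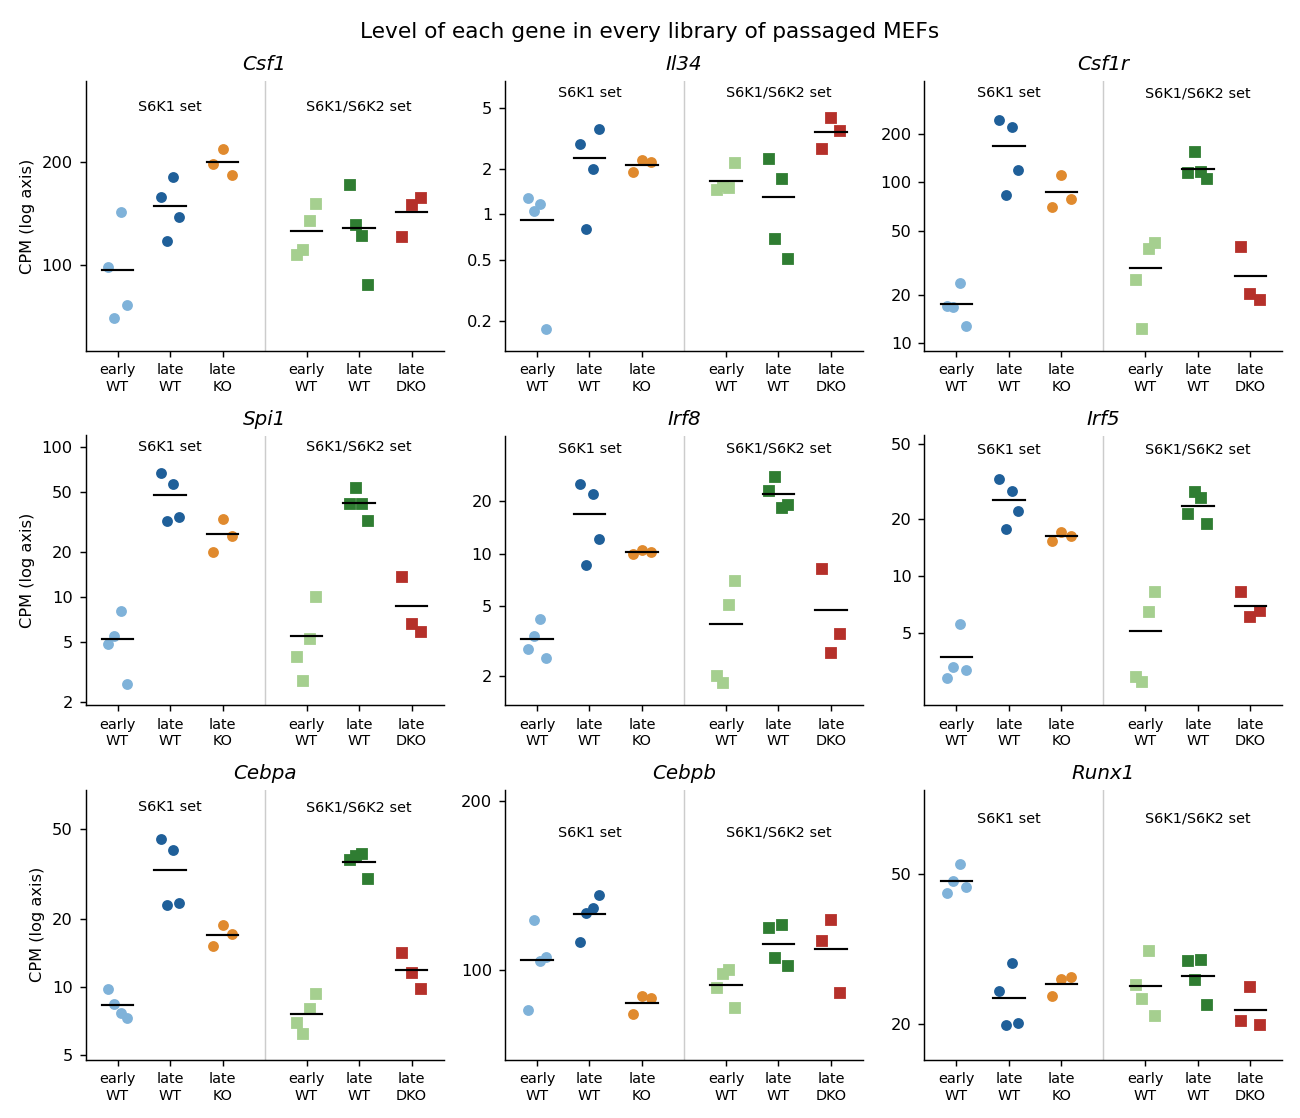
CPM of each member (log axis) in each of the 22 libraries, by group, with a bar at the group mean. The receptor and Spi1, Irf8, Irf5 and Cebpa step up from early to late WT in both sets and down again in DKO, as for Csf1r from 29.3 to 121 and 26.1 CPM on average in the S6K1/S6K2 set, while Csf1 and Cebpb stay within 69.5 to 218 CPM in all 22 libraries.

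The ratio of receptor to ligand reads within a library hardly depends on how libraries are scaled against each other. With 0.5 CPM added to both values, the ratio of Csf1r to Csf1 was 0.168 to 0.248 in early WT of the S6K1 set, 0.709 to 1.54 in late WT and 0.354 to 0.507 in KO. It was 0.115 to 0.290 in early WT of the S6K1/S6K2 set, 0.661 to 1.19 in late WT and 0.121 to 0.331 in DKO. In each of the 4 comparisons the groups did not overlap. The log2 ratio rose with passage by 2.45 and 2.16 in the 2 sets and was lower by 1.28 in KO and by 2.45 in DKO than in late WT. Each difference had a two-sided exact permutation P of 0.0286, which is the smallest that groups of this size allow, and 0.0286 after adjustment over the 4 comparisons. The KO difference of the ratio combines a lower Csf1r and a higher Csf1, neither of which passed the test across all genes. The ratio was not adjusted for embryo sex, and Y-linked reads were in 3 of 3 KO and 1 of 4 late WT libraries. In the S6K1/S6K2 set they were in 1 of 3 DKO, 3 of 4 late WT and 2 of 4 early WT libraries. With embryo sex in the fit the higher Csf1 in KO did not remain, as given above. The S6K1 KO group thus lay between early and late WT on this measure, and DKO overlapped early WT.

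**Figure D3:**
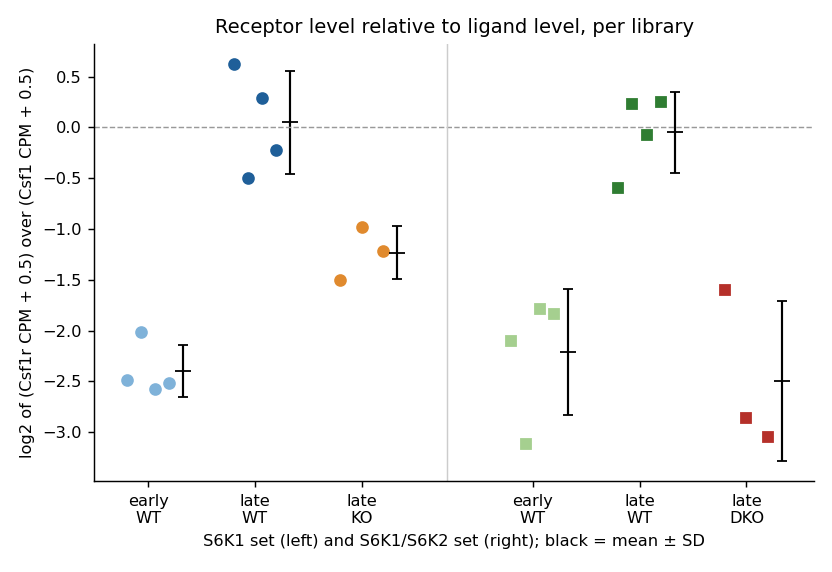
Log2 ratio of Csf1r to Csf1 CPM, each plus 0.5 CPM, in every library by group, with the mean ± SD in black (n = 3 or 4) and a dashed line at equal levels. Late WT libraries of both sets lie around 0, from −0.60 to 0.63, and KO (−1.50 to −0.98) and DKO (−3.04 to −1.60) lie below them.

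Spi1 (chromosome 2, 91082374 to 91115759), which encodes PU.1, had the largest or second largest difference of the members in both passage comparisons and in DKO. It was at 4.88, 5.54, 8.10 and 2.64 CPM in early WT of the S6K1 set, at 67.6, 32.4, 56.4 and 34.3 CPM in late WT and at 20.01, 33.3 and 25.5 CPM in KO. Early and late WT were wide apart, and 1 KO library reached into the late WT range. The log2 difference was 3.15 (SE 0.34, adjusted P = 0.000119) with passage and −0.86 (SE 0.34, adjusted P = 0.401) in KO, both by edgeR. In the second set it was at 3.98, 2.76, 5.26 and 10.001 CPM in early WT, at 41.7, 53.1, 41.9 and 32.04 CPM in late WT and at 13.6, 6.59 and 5.88 CPM in DKO. DKO lay below late WT and overlapped early WT. The differences were 2.97 (SE 0.39, adjusted P = 0.00104) with passage and −2.30 (SE 0.42, adjusted P = 0.0129) in DKO, both by edgeR.

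Irf8 (chromosome 8, 120736358 to 120756694), a factor of monocyte and dendritic cell development, had fewer reads. It was at 2.84, 3.37, 4.25 and 2.55 CPM in early WT of the S6K1 set, at 24.8, 8.56, 21.8 and 12.2 CPM in late WT and at 9.90, 10.5 and 10.2 CPM in KO. KO libraries fell inside the late WT range, in which libraries 1 and 3 were again the higher ones. The passage difference was 2.36 (SE 0.32, adjusted P = 0.000551, edgeR) and the KO difference −0.73 (SE 0.33, adjusted P = 0.464, edgeR). In the second set Irf8 was at 1.99, 1.84, 5.07 and 7.02 CPM in early WT, at 22.7, 27.5, 18.3 and 18.9 CPM in late WT and at 8.19, 2.71 and 3.46 CPM in DKO. Late WT was above both other groups in every library. The differences were 2.49 (SE 0.45, adjusted P = 0.00512) with passage and −2.21 (SE 0.50, adjusted P = 0.0295) in DKO, both by edgeR. The DKO call of Irf8 was lost without a filter on low counts (adjusted P = 0.103, edgeR), without DKO replicate 2 or 3 (0.140 and 0.129) and without late WT replicate 2 or 3 (0.0709 and 0.0519). Irf8 shares its span and strand with the gene model Gm20388, so reads counted for it are uncertain.

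Irf5 (chromosome 6, 29526130 to 29541869) was at 2.90, 3.29, 5.59 and 3.17 CPM in early WT of the S6K1 set, at 32.6, 17.7, 28.3 and 22.1 CPM in late WT and at 15.4, 17.1 and 16.3 CPM in KO. All 3 KO libraries lay just below the lowest late WT library. The log2 difference was 2.74 (SE 0.25, adjusted P = 4.27e-05) with passage and −0.63 (SE 0.25, adjusted P = 0.402) in KO, both by edgeR. In the second set Irf5 was at 2.93, 2.76, 6.43 and 8.28 CPM in early WT, at 21.3, 27.9, 25.95 and 18.9 CPM in late WT and at 8.19, 6.10 and 6.56 CPM in DKO. DKO sat inside the early WT range. The differences were 2.24 (SE 0.32, adjusted P = 0.00131) with passage and −1.77 (SE 0.35, adjusted P = 0.0156) in DKO, both by edgeR. Irf5 overlaps Tnpo3 on the opposite strand.

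Cebpa (chromosome 7, 35119293 to 35121928), which encodes C/EBPα, had the smallest standard error of the 5 genes with passage in both sets and in DKO. It was at 9.82, 8.38, 7.63 and 7.31 CPM in early WT of the S6K1 set, at 44.9, 23.1, 40.4 and 23.5 CPM in late WT and at 15.1, 18.9 and 17.1 CPM in KO. The 3 groups did not overlap, with KO between early and late WT. The passage difference was 1.99 (SE 0.23, adjusted P = 0.000198, edgeR). The KO difference of −0.96 (SE 0.25) had an unadjusted P of 0.0021 and an adjusted P of 0.211 in edgeR and an adjusted P of 0.0244 in DESeq2. In the second set Cebpa was at 6.91, 6.18, 7.99 and 9.34 CPM in early WT, at 36.5, 37.8, 38.6 and 30.1 CPM in late WT and at 14.2, 11.5 and 9.77 CPM in DKO. Here too the knock-out group lay between the 2 WT groups without overlap. The differences were 2.26 (SE 0.17, adjusted P = 3.22e-05) with passage and −1.61 (SE 0.18, adjusted P = 0.00155) in DKO, both by edgeR. Cebpa was the 1 member still called in DKO when replicate 2 or replicate 3 of that group was left out, with adjusted P values of 0.0181 and 0.0166 (edgeR).

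Cebpb (chromosome 2, 167688915 to 167690432), which encodes C/EBPβ, was expressed at a like level in every library. It was at 85.0, 123, 104 and 106 CPM in early WT of the S6K1 set, at 112, 126, 129 and 136 CPM in late WT and at 83.4, 89.8 and 88.9 CPM in KO. The KO libraries lay below late WT and overlapped early WT. The differences were 0.27 (SE 0.13, adjusted P = 0.206) with passage and −0.53 (SE 0.14, adjusted P = 0.234) in KO by edgeR, and the KO difference had an adjusted P of 0.0244 in DESeq2. In the second set it was at 92.9, 98.3, 99.9 and 85.4 CPM in early WT, at 119, 105, 120 and 101 CPM in late WT and at 112, 123 and 91.1 CPM in DKO. The 4 late WT libraries were above the 4 early ones by a small margin and overlapped DKO. The differences were 0.27 (SE 0.12, adjusted P = 0.133) with passage and −0.049 (SE 0.12, adjusted P = 0.886) in DKO, both by edgeR. Cebpb overlaps Tmem189 on the opposite strand.

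Runx1 (chromosome 16, 92601466 to 92826074), a factor of blood stem cell emergence that is also expressed in mesenchymal cells, was the member that fell. It was at 44.5, 48.0, 53.1 and 46.2 CPM in early WT of the S6K1 set, at 24.5, 19.9, 29.2 and 20.1 CPM in late WT and at 23.8, 26.4 and 26.7 CPM in KO. The early WT libraries stood above both late groups, which overlapped each other. The passage difference was −1.03 (SE 0.15, adjusted P = 0.000775, edgeR) and the KO difference 0.13 (SE 0.16, adjusted P = 0.820, edgeR). In the second set Runx1 was at 25.4, 23.3, 31.4 and 21.1 CPM in early WT, at 29.5, 26.1, 29.6 and 22.4 CPM in late WT and at 20.4, 25.1 and 19.9 CPM in DKO. Here early WT was at the level of the late groups. The differences were 0.12 (SE 0.15, adjusted P = 0.621) with passage and −0.32 (SE 0.16, adjusted P = 0.322) in DKO, both by edgeR. Runx1 overlaps Gm16801 on the opposite strand.

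Whether a change differed between the 2 sets was tested by an interaction term over all 22 libraries. For passage, Runx1 was the 1 member called, with a difference of 1.12 between the sets (SE 0.20, adjusted P = 0.00662, edgeR), beside 0.712% of 14886 genes. Csf1r rose by 1.19 less in the S6K1/S6K2 set on the log2 scale, which did not pass the test (adjusted P = 0.442, edgeR), and the difference for Il34 was −1.65 (adjusted P = 0.448). For genotype, that is DKO against KO, 0 of the 9 members were called by edgeR, beside 0.00672% of genes, and 7 had an unadjusted P under 0.05, beside 10.9% of genes. The differences were −1.27 for Csf1r, −1.42 for Spi1, −1.46 for Irf8, −1.13 for Irf5 and −0.64 for Cebpa, with adjusted P values of 0.367 to 0.451 (edgeR). The larger decrease in DKO than in KO was therefore not shown to differ for any member, and the 2 knock-outs were measured in MEFs from different matings.

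Levels of different genes were compared as CPM per kilobase of annotated exon. All exons of a gene in GENCODE vM1 were joined, which gave 1504 bases for Cebpb, 7055 for Irf8 and 7798 for Runx1. The count table holds 22812 identifiers that vM1 lacks, so these lengths may differ from those used in counting. The order of genes depends on them. Cebpb was the highest member in all 6 groups, at means of 58.1 to 83.7 CPM per kb, and its libraries did not overlap those of the next gene. Csf1 came second in 5 of the 6 groups, at 18.4 to 38.0 CPM per kb. In early WT of the S6K1 set Csf1 (18.4) was followed by Runx1 (6.15), Csf1r (3.37), Cebpa (3.15), Spi1 (1.96), Irf5 (1.29), Il34 (0.469) and Irf8 (0.461), in CPM per kb. Ranges of neighbours overlapped from Csf1r down to Irf5, and again between Il34 and Irf8. In early WT of the S6K1/S6K2 set Csf1 (23.8) was followed by Csf1r (5.604), Runx1 (3.24), Cebpa (2.89), Spi1 (2.04), Irf5 (1.76), Il34 (0.848) and Irf8 (0.564), and each of these from Csf1r on overlapped the next.

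Late WT had another order. In the S6K1 set Csf1r was at 31.8 ± 14.8 CPM per kb (SD, n = 4) and Csf1 at 28.2 ± 5.11, and in the S6K1/S6K2 set Csf1 was at 24.3 ± 6.61 and Csf1r at 23.2 ± 4.19. Receptor and ligand overlapped in both. Spi1 (17.7 and 15.7 CPM per kb in the 2 sets), Cebpa (12.5 and 13.6) and Irf5 (8.67 and 8.11) then stood above Runx1 (3.00 and 3.45), Irf8 (2.38 and 3.09) and Il34 (1.19 and 0.663). Csf1 and Spi1 overlapped in both sets, as did Spi1 and Cebpa and Runx1 and Irf8, and in the S6K1 set Cebpa and Irf5, and Irf8 and Il34, overlapped too.

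In the knock-outs Csf1 was again clear of the receptor. KO MEFs had Csf1 at 38.0 ± 3.25 and Csf1r at 16.5 ± 4.08 CPM per kb, and DKO MEFs had Csf1 at 27.1 ± 3.64 and Csf1r at 4.997 ± 2.24 (SD, n = 3). Below the receptor in KO came Spi1 (9.74), Cebpa (6.47), Irf5 (5.598), Runx1 (3.29), Irf8 (1.44) and Il34 (1.08), of which Cebpa and Irf5 overlapped. In DKO the neighbours from Csf1r (4.997) through Cebpa (4.49), Spi1 (3.22), Runx1 (2.79), Irf5 (2.39) and Il34 (1.79) overlapped, and Irf8 (0.679) was lowest. KO libraries lay above early WT for Csf1r, Csf1, Il34, Spi1, Cebpa, Irf5 and Irf8, below for Runx1, and overlapped it for Cebpb, beside 14.1% of all genes above and 13.1% below. DKO libraries overlapped early WT for all members other than Il34 and Cebpa, which were higher in DKO, beside 14.1% of all genes above and 16.4% below. These comparisons with early WT are of ranges, not tests.

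**Figure D4:**
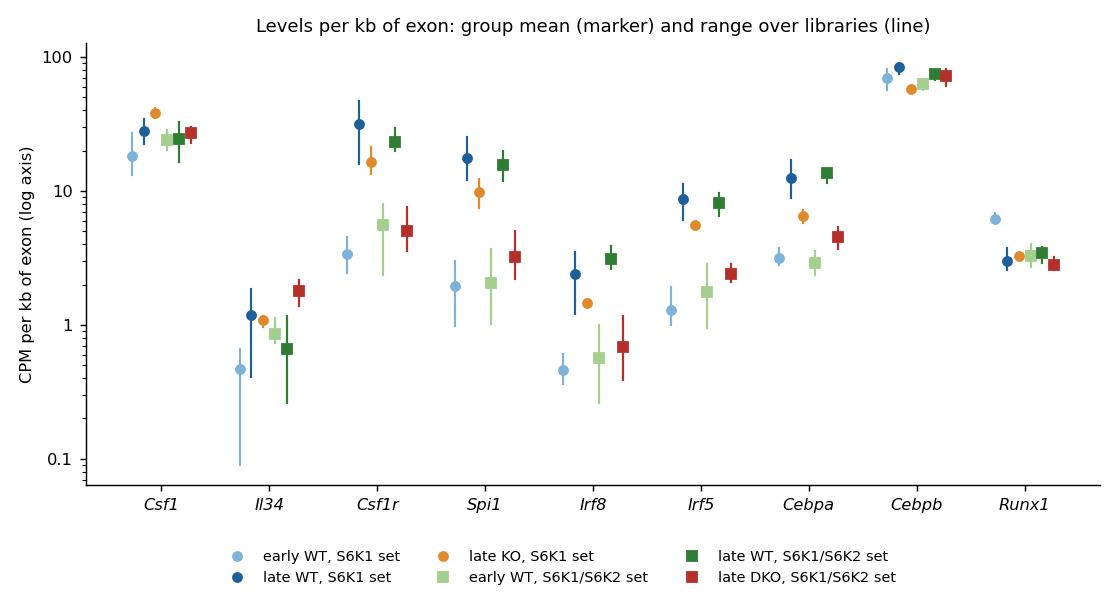
CPM per kilobase of exon (log axis) of each member in the 6 groups, with a marker at the group mean and a line over the range of its 3 or 4 libraries. Cebpb lies at the top in every group, between 58.1 and 83.7, and Csf1r reaches Csf1 in late WT of both sets, at 31.8 against 28.2 and 23.2 against 24.3.

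Macrophage markers moved with the receptor and the factors. Of 22 markers fixed by name, 21 were tested: 19 rose and 0 fell with passage in each set (medians 2.94 and 2.51 on the log2 scale), and 0 rose and 20 fell in DKO (median −2.43). Of all genes, 6.96% and 8.28% rose with passage in the 2 sets and 3.95% fell in DKO. In KO 0 of the 21 markers passed, all 21 were below 0, and the median was −0.87. Cd163 had no reads in any group. Relative to the summed markers of the same library, Csf1r changed by −0.18 (log2 of the ratio) and Spi1 by −0.20 with passage in the S6K1 set, and by −0.95 and −0.16 in the S6K1/S6K2 set. The other risers fell further behind the markers in the S6K1 set, at −0.68 for Irf5, −1.17 for Irf8 and −1.41 for Cebpa, and stood at −0.89, −0.63 and −0.94 in the S6K1/S6K2 set. Csf1 was at −2.62 and −3.11 and Cebpb at −3.00 and −2.87. In KO the ratio to the markers changed by 0.046 for Csf1r, 0.076 for Spi1, 0.0092 for Cebpa, 0.31 for Irf5 and 0.31 for Irf8, and by 0.36 for Cebpb and 1.33 for Csf1. In DKO it changed by 0.46 for Csf1r, 0.44 for Spi1, 0.53 for Irf8, 1.04 for Irf5 and 1.16 for Cebpa, by contrast with 2.92 for Csf1 and 2.69 for Cebpb. The part of macrophage number in the levels of the members was not tested. Of 10 fibroblast markers tested, 2 fell with passage in each set, 1 rose in DKO and 0 passed in KO (edgeR). Beside these few calls, 5.97% and 4.89% of all genes fell with passage and 0.821% rose in DKO. In KO, 3 of the 10 were above 0 and 7 below.

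**Figure D5:**
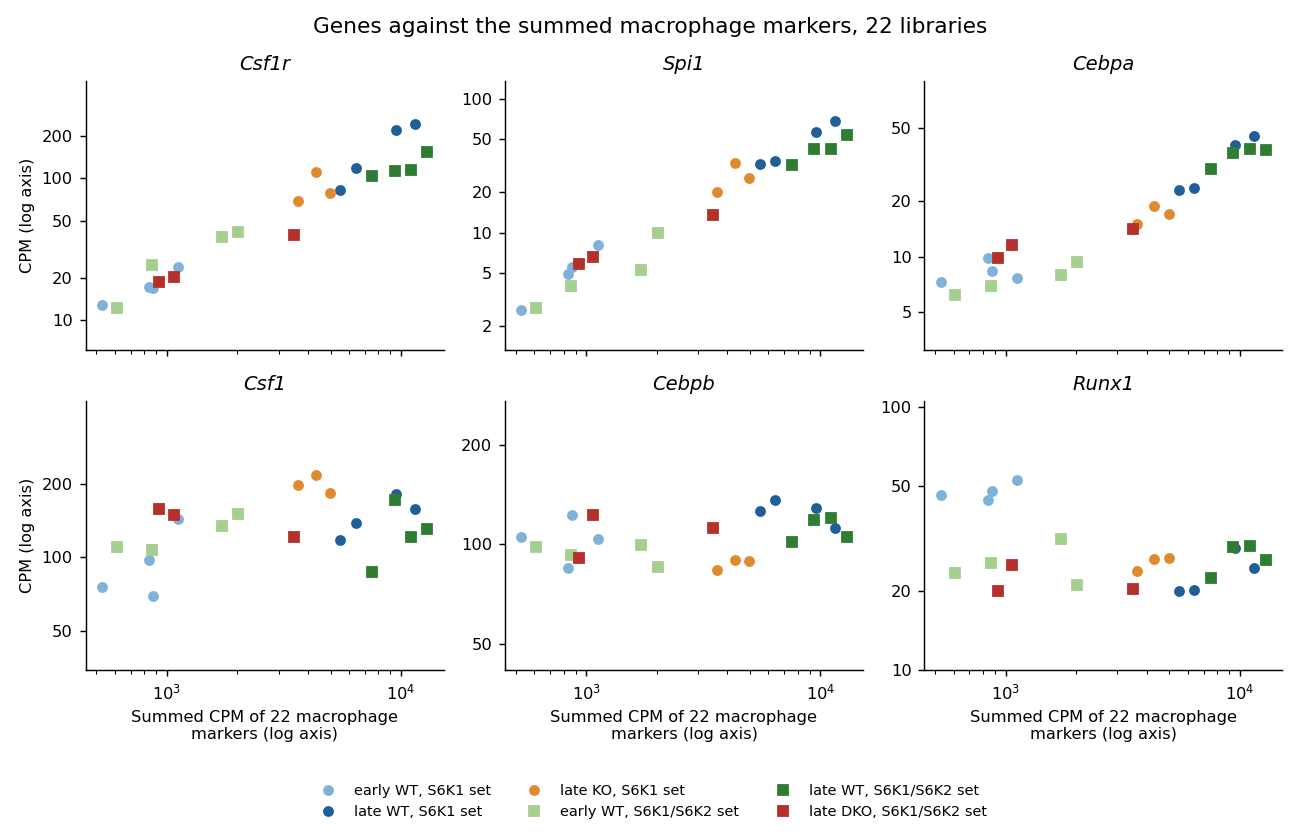
CPM of 6 members against the summed CPM of 22 macrophage markers in the same library (both axes log), for 22 libraries in 6 groups. Csf1r, Spi1 and Cebpa climb with the markers over their range of 528 to 12948 CPM, whereas Csf1 and Cebpb cover a narrower range, from 69.5 to 218 and from 83.4 to 136 CPM.

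Over the 22 libraries the genes most like Csf1r, among 10366 genes with a mean of at least 5 CPM, were Tlr13 (Pearson r = 0.991), Ptpn6 (0.986), C5ar1 (0.983), Lcp1 (0.983) and C1qb (0.982), each of which is known from macrophages or leukocytes. Among the members r with Csf1r was 0.972 for Spi1, 0.968 for Irf5, 0.954 for Irf8 and 0.928 for Cebpa, and 0.511 for Csf1, 0.308 for Cebpb, 0.169 for Il34 and −0.380 for Runx1. The genes most like Csf1 were Niban2 (0.840), Homer3 (0.839), Alg14 (0.836), Zyx (0.828) and Arl6ip5 (0.823). Its r with Il34, the other ligand, was 0.652. The libraries share their groups, so these values describe how genes rank together across 6 groups and carry no P.

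Other colony-stimulating and growth factor genes were read from a list of 13, of which 8 were tested. With passage 3 rose and 0 fell in the S6K1 set (median 1.04) and 4 rose and 1 fell in the S6K1/S6K2 set (median 0.51). In DKO 0 rose and 3 fell (median −0.34), and 0 passed in KO (median −0.65). Among all genes 6.96% rose and 5.97% fell with passage in the S6K1 set, and 8.28% and 4.89% in the S6K1/S6K2 set. In DKO 0.821% of all genes rose and 3.95% fell. Csf2rb encodes the common β subunit of the GM-CSF, IL-3 and IL-5 receptors, and Csf2rb2 is its IL-3 receptor paralog in the mouse. Csf2rb2 was at 1.08 ± 0.372 CPM in early WT (SD, n = 4), 17.5 ± 10.2 in late WT and 8.77 ± 1.39 in KO (n = 3), and at 2.87 ± 1.69, 19.3 ± 2.81 and 3.82 ± 2.20 CPM in the S6K1/S6K2 set. Its log2 changes were 4.01 and 2.78 with passage (adjusted P = 0.000125 and 0.00203) and −2.35 in DKO (adjusted P = 0.0157), and those of Csf2rb were 2.84, 2.32 and −2.13 (adjusted P = 0.000314, 0.00539 and 0.028), all by edgeR. The 1 gene of the list that fell with passage was Sdc1, a heparan sulfate carrier, at −0.70 (adjusted P = 0.0194, edgeR). Csf2rb and Csf2rb2 are near-identical over long stretches, so reads may be split between them. Of the ligand genes of the list, Csf2, the gene of GM-CSF, had at most 1 read in any library and Csf3 at most 9. Kitl was at 12.3 to 17.2 CPM on average over the groups. The identifier that carried the symbol Flt3l had no reads, and reads under an identifier without a symbol would have been missed.

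Among 16 relatives of the factors by family, 11 were tested. Medians over the 4 comparisons lay between −0.12 and 0.020, and 0 passed in KO or DKO. With passage 0 rose and 2 fell in each set, beside 5.97% and 4.89% of all genes falling. In the S6K1 set the 2 were Runx2, the factor of bone formation, at −1.51 (adjusted P = 0.000657) and Irf9, of the interferon response, at −0.69 (adjusted P = 0.0245). In the S6K1/S6K2 set they were Irf7 at −1.98 (adjusted P = 0.0025) and Irf9 at −0.82 (adjusted P = 0.023), all by edgeR. Runx2 thus fell beside Runx1 in the S6K1 set, from 58.2 ± 18.8 to 20.4 ± 1.75 CPM (SD, n = 4). Cebpd, which encodes C/EBPδ, was at 60.0 to 88.5 CPM on average over the groups and did not pass in any of the 4 comparisons.

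Of 18 other myeloid transcription factors 16 were tested. In the S6K1 set 5 rose and 3 fell with passage (median 0.42), and in the S6K1/S6K2 set 13 rose and 0 fell (median 1.33). In KO 0 passed (median −0.62), and in DKO 0 rose and 4 fell (median −0.50). For all genes, higher and lower, the shares were 6.96% and 5.97%, 8.28% and 4.89%, and in DKO 0.821% and 3.95%. Ikzf1, the lymphoid and myeloid factor Ikaros, rose by 2.61 in the S6K1 set (adjusted P = 0.000572) and fell by 2.64 in DKO (adjusted P = 0.0337), and Tal1, a factor of early blood development, rose by 3.00 in the S6K1 set (adjusted P = 0.00124). Id2, an inhibitor of basic helix-loop-helix factors, rose by 2.07 with passage in the S6K1/S6K2 set (adjusted P = 0.000124). Bhlhe40 and Egr2, which are induced by growth signals in many cells, changed by −1.40 and −1.46 with passage in the S6K1 set (adjusted P = 0.0013 and 0.00732), all by edgeR.

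Of 23 genes of signalling from CSF1R inside the cell, 22 were tested. With passage 8 rose and 1 fell in the S6K1 set (median 0.26) and 8 rose and 2 fell in the S6K1/S6K2 set (median 0.26). In DKO 0 rose and 8 fell (median −0.47), while 0 passed in KO (median −0.19). The shares of all genes, higher and lower, were 6.96% and 5.97%, 8.28% and 4.89%, and in DKO 0.821% and 3.95%. Those that rose most surely in the S6K1 set were Vav1, a signalling protein of blood cells (2.94, adjusted P = 1.93e-05), and Inpp5d, which encodes the phosphatase SHIP1 (2.82, adjusted P = 3.68e-05), both by edgeR. In the S6K1/S6K2 set the kinase Syk rose by 1.27 (adjusted P = 0.000756) and Pik3cd, the blood-cell catalytic subunit of PI3-kinase, by 1.39 (adjusted P = 0.000902), while the adaptor Dok1 fell by 0.81 (adjusted P = 0.00124), all by edgeR. In DKO Pik3cd fell by 1.97 and Syk by 1.72 (adjusted P = 0.00118 each, edgeR), with Pik3cd at 2.98 ± 0.482 CPM (SD, n = 3) against 11.6 ± 1.32 in late WT (n = 4). The src-family kinase Yes1, which is broadly expressed, fell by 0.80 with passage in the S6K1 set (adjusted P = 0.0245, edgeR).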

How the data were processed

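RNA was sequenced as single-end reads from stranded mRNA libraries, and the authors deposited 1 table of raw counts per gene, with no normalization, for 22 libraries, none of them pooled. The submitters' processing notes name CASAVA, STAR 2.7.1a, DESeq2 1.28.1 and mm10, whereas the study's methods name TopHat, HTSeq and mm9. Of 55401 identifiers 32589 (97.0% of the counts) received a symbol from GENCODE vM1, 2624 of them updated through RefSeq synonyms. Identifiers without a symbol stayed in the fits.

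Groups came from the labels. Each MEF set was fitted with its 3 groups in edgeR 4.0.16 (R 4.3.3, TMM scaling, filterByExpr, robust quasi-likelihood test), and calls used an adjusted P (Benjamini-Hochberg over all genes tested) under 0.05. Interactions used all 22 libraries. CPM used TMM-scaled library sizes over all libraries, and exon lengths came from GENCODE vM1. The log2 ratio of Csf1r to Csf1, with 0.5 CPM added, was compared by two-sided exact permutation tests (scipy 1.17.1). The fits were tested on simulated counts.

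The 9 genes and the gene lists, with the motifs, were chosen with earlier results of these data known. From each list other than the markers, up to 2 genes per direction were named, those with the smallest P among the genes called, and some of the genes so chosen are not reported here. The 5 genes with the highest Pearson r to Csf1r and to Csf1 over log2 CPM were named as well, among genes with a mean of at least 5 CPM. Alternatives were DESeq2 1.42.0, RLE scaling, no filter, other samples in the fit, a covariate for embryo sex from Y-linked genes, other pseudocounts and leaving out each library. Libraries are numbered in accession order within a group. Promoter windows came from RefSeq (GRCm38.p6).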

Additional observations from a re-analysis of the deposited data

Results flagged for a closer look

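Of 36 member and group pairs with 4 libraries, 2 held a library far from the other 3, and chance alone sets apart about 1 in 20. Il34 in early WT of the S6K1/S6K2 set had its highest library at 2.19 CPM, with the other 3 between 1.44 and 1.53 CPM. Irf5 in early WT of the S6K1 set had its highest library at 5.59 CPM, with the other 3 between 2.90 and 3.29 CPM. That library was also the highest of its group for Csf1r, Spi1 and Irf8 and for the summed macrophage markers. It was the highest for Csf1 (143 CPM) and Runx1 (53.1 CPM) as well, and not for Cebpa, Cebpb or Il34. Runx1 changed with passage differently in the 2 sets, by an interaction of 1.12 on the log2 scale (adjusted P = 0.00662, edgeR). It was higher in all 4 early WT libraries of the S6K1 set, at 44.5 to 53.1 CPM, than in any other library.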

How the results depend on the processing

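Under RLE scaling, other samples in the fit and the other pseudocounts no call on a member changed. With DESeq2 2 members were called in KO in place of 0. Without DKO replicate 2 or 3 the DKO comparison called 1 member (Cebpa), and over all libraries left out it called 1 to 6, beside 6 to 7 for passage in the S6K1 set, 5 to 5 in the S6K1/S6K2 set and 0 to 0 for KO. The log2 Csf1r to Csf1 ratio differed by −1.46 to −1.09 in KO and −2.90 to −2.18 in DKO with 1 library left out. The exact permutation P values were 0.0667 to 0.133 in KO and 0.0667 to 0.1 in DKO. Groups that small cannot reach 0.05, but the highest KO value lay above the smallest P possible for its group sizes. With embryo sex in the fit Csf1 gained a call with passage in the S6K1 set (0.83), and uncalled members changed sign: Csf1 (−0.018) and Runx1 (−0.040) in KO, Csf1 with passage in the S6K1/S6K2 set (−0.017), Cebpb in DKO (0.025) and Csf1 for genotype by set (0.16). With 1 library left out, Il34 ran from −0.42 to 0.16 in KO, Csf1 from −0.13 to 0.19 with passage in the S6K1/S6K2 set, Cebpb from −0.13 to 0.066 in DKO, and for passage by set Cebpb from −0.12 to 0.056, Irf8 from −0.14 to 0.52 and Spi1 from −0.49 to 0.24. The cause was not tested. Over all genes, DESeq2 called 99 higher and 167 lower in KO in place of 1 and 5, 356 and 850 in DKO in place of 118 and 568, 1536 and 1309 with passage in the S6K1/S6K2 set in place of 1190 and 702, 137 and 85 for passage by set in place of 68 and 38, and 34 and 31 for genotype by set in place of 0 and 1. With no filter KO had 17 and 26 calls, with embryo sex in the fit 13 and 12 and with all 6 groups 9 higher, with the 2 groups alone DKO had 45 higher and passage in the S6K1 set 493 lower, and embryo sex raised the latter comparison from 983 and 844 to 1648 and 1633. The least covered member was Il34, at 2 to 57 reads per library. No paired analysis was possible because the labels carry library codes and no replicate numbers.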
